A study of Mus musculus with 12 samples.

Results

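A set of 10 genes of bone morphogenetic protein (BMP) signalling was followed in the lungs of mice kept in hypoxia or normoxia: the ligands Bmp6 and Bmp4, the receptors Bmpr2, Bmpr1a and Acvrl1, the co-receptor Eng, the inhibitory SMAD gene Smad6 and the ID genes Id1, Id2 and Id3. They were found on the arrays by gene symbol or synonym, all 10 were measured, and the named transcript clusters of the whole table stand for 22171 genes. In hypoxia, Bmp6, Smad6 and Eng fell, whereas the ID genes, the best known readouts of BMP signalling, did not pass the test. The call for Bmpr2 depended on which of its 2 transcript clusters was read.

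BMP ligands bind pairs of type I receptors (such as BMPR1A and ALK1, the product of Acvrl1) and type II receptors (such as BMPR2), and endoglin, the product of Eng, presents BMP ligands to ALK1 on endothelial cells. The receptors phosphorylate SMAD1, SMAD5 and SMAD9, which join SMAD4 and switch on Id1, Id2, Id3 and Smad6, and the SMAD6 protein in turn restrains the receptors. Inherited loss of BMPR2 is the main known cause of heritable pulmonary arterial hypertension, and variants of ALK1 and endoglin cause hereditary haemorrhagic telangiectasia.

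The hypoxic group comprised 6 C57BL/6J mice housed in a normobaric chamber at 10% oxygen for 3 days, and the normoxic group 6 C57BL/6J mice kept in room air (21% oxygen). The study's general methods give age-matched male mice, and no allele or drug was named for either group. The section on the arrays gives no age, and the mice of the study's longer hypoxia model were 10 to 12 weeks old. Each mouse gave its left lung lobe, whose RNA was amplified and hybridised to 1 whole-transcript array, so that n is the number of mice. Whole lung holds many cell types, and fewer cells of a type and less RNA per cell cannot be told apart in these values.

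A level is the deposited log2 value of a transcript cluster, a group of probes along 1 transcribed region, so that 1 unit corresponds to 2-fold. Levels of different genes are not compared, since probes differ in brightness. The arrays had medians of 5.89 to 5.95 and correlated with each other at r=0.983 to 0.989 over all clusters. The lung label was borne out by its markers, since the surfactant gene Sftpc had a level of 13.35±0.03 in hypoxia and 13.39±0.04 in normoxia (SD, n=6 each). The 23 background probe sets of the array ranged from 2.09 to 7.52 (median 3.02), and the lowest level of any of the 10 genes on any array was 7.66. Differences are hypoxia minus normoxia from limma, with Benjamini-Hochberg adjustment over 41155 clusters, a threshold of 0.05 for the adjusted p and 95% intervals.

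Of the 10 genes, 3 were lower in hypoxia and 0 higher. Over all clusters, 4.47% passed the threshold, 1.70% being lower and 2.77% higher in hypoxia. These shares stand for 699 lower and 1141 higher clusters, and with each array scaled to the mean of its endothelial markers, an alternative chosen after seeing the data that raises all differences by the same amount, 252 were lower and 3829 higher. Among the 20574 clusters above the median level, fitted on their own, 2322 passed, 1014 lower and 1308 higher. All 10 genes are among these brighter clusters, and the same 3 were lower there. The median difference of the 10 genes was -0.12, and that of all clusters was -0.02. In the same 3 genes every hypoxic mouse lay below every normoxic mouse, and groups failed to overlap in 4.03% of all clusters. The 10 genes had been chosen with earlier results of these data known, so these shares describe them and are not a test.

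**Figure D1:**
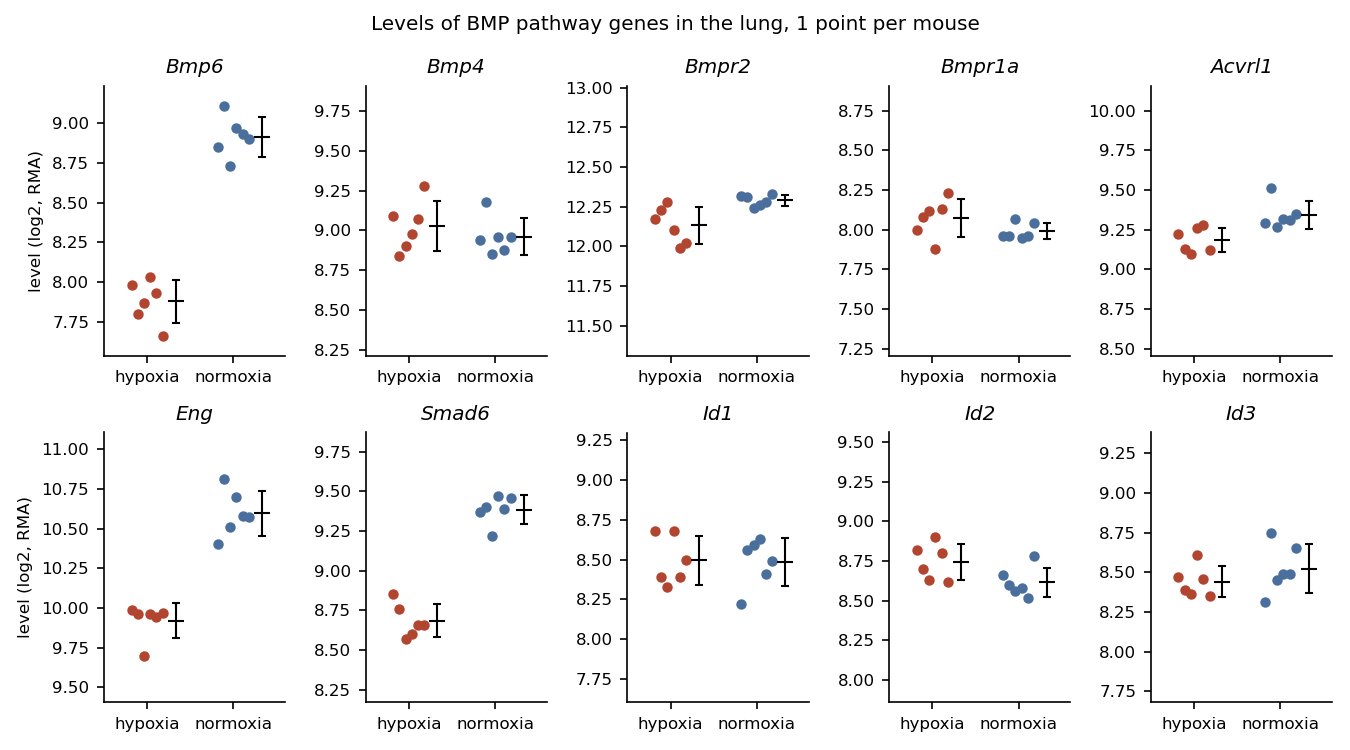
Levels (log2, RMA) of the 10 BMP genes in 6 hypoxic and 6 normoxic mice, 1 point per mouse, with the mean and SD of each group beside the points; each panel spans the same range of log2 units. Only in the panels of Bmp6, Eng and Smad6 do the groups stand apart, with hypoxia lower.

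Among the ligands, Bmp6 showed the largest change of the 10 genes. BMP6 is a secreted ligand made by endothelial cells of several organs, and in the liver it is known for raising the iron hormone hepcidin. The level of Bmp6 was 7.66 at the lowest, 7.90 at the median and 8.03 at the highest in hypoxia, and 8.73, 8.92 and 9.11 at the same ranks in normoxia. The highest hypoxic mouse lay below the lowest normoxic mouse. The difference was -1.04 (SE 0.077, interval -1.20 to -0.87, limma adjusted p=7.93e-06), which is 0.49 of the normoxic level (exact permutation p=0.00216, two-sided, the smallest that 6 against 6 mice allow).

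Bmp4, a ligand required for lung branching in the embryo, ranged from 8.84 to 9.28 in hypoxia (median 9.03) and from 8.85 to 9.18 in normoxia (median 8.95). The groups overlapped almost entirely, with 4 of 6 hypoxic mice above the normoxic median. The difference of 0.07 did not pass the test (interval -0.11 to 0.24, limma adjusted p=0.769).

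The 250 bases before the start of Bmp6 are shown because it changed most among the 10 genes, with those of Smad6 and Eng, which also fell, and of Id3, a BMP target that was not called. Sequences are RefSeq's (GRCm38.p6), 5' to 3' on the strand of the gene, and 8 of the 10 genes were matched in the promoter table. The start is the one this table uses, and the 26 bases of the Smad6 window next to it lie inside the annotated extent of the gene, as does the whole window of Bmpr1a. Capitals mark matches, on either strand, to CAGAC, a motif bound by SMAD4 (GTCTG when read on the other strand), and to ACGTG and GCGTG, core motifs of hypoxia response elements. None of these 4 windows holds GGCGCC, a motif bound by SMAD1 and SMAD5. The windows are Bmp6 at chr13:38345466-38345715, plus strand, Smad6 at chr9:64022060-64022309, minus strand, Eng at chr2:32646345-32646594, plus strand, and Id3 at chr4:136143572-136143821, plus strand.
Bmp6: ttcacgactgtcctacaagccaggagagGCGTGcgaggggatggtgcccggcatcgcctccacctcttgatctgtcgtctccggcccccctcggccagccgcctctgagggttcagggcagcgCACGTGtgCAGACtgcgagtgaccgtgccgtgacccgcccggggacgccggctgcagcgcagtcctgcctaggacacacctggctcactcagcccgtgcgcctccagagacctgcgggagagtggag
Smad6: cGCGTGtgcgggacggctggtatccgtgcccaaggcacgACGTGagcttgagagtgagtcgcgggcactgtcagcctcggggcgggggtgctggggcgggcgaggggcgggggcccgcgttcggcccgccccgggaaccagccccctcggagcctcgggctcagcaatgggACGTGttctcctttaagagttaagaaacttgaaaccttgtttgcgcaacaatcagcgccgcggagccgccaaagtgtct
Eng: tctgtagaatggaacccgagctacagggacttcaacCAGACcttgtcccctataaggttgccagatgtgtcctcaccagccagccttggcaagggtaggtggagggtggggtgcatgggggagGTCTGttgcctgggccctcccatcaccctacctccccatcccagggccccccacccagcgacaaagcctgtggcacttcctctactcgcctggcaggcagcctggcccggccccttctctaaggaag
Id3: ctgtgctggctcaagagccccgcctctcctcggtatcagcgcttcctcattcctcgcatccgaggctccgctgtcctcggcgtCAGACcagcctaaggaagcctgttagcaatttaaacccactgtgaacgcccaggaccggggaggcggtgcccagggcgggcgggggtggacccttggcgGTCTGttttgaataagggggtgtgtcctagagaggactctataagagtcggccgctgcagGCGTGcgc
The Bmp6 window holds GCGTG once, 222 to 218 bases before the start. It also holds ACGTG on both strands, which overlap as the palindrome CACGTG, and CAGAC 119 to 115 bases before the start. The Smad6 window holds ACGTG at 2 places and GCGTG at 1. The Eng window holds neither hypoxia core and has CAGAC at 2 places, 1 on each strand. The Id3 window also has CAGAC at 2 places, and GCGTG 8 to 4 bases before the start. In 32851 mouse promoter windows of 250 bases, CAGAC was found in 42.2%, ACGTG in 16.6%, GCGTG in 28.2% and GGCGCC in 9.59%. GGCGCC was found once each in the windows of Bmpr2, Bmpr1a and Id2, and the window of Bmp4, which was not called, holds ACGTG on both strands in the same overlap as that of Bmp6. A match is a run of letters and was not tested as a binding site.

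Among the receptors and the co-receptor, only Eng was called on the cluster that stands for the gene. Endoglin is carried mainly by endothelial cells in the lung. The level of Eng was 9.70 at the lowest, 9.96 at the median and 9.99 at the highest in hypoxia, and 10.40, 10.58 and 10.81 at the same ranks in normoxia. All 6 hypoxic mice lay below the normoxic range, and hypoxia replicate 3 lay apart from the other 5. The difference was -0.68 (SE 0.076, interval -0.84 to -0.51, limma adjusted p=0.000214), or 0.63 of the normoxic level.

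Acvrl1, the gene of the type I receptor that pairs with endoglin, ranged from 9.10 to 9.28 in hypoxia (median 9.18) and from 9.27 to 9.51 in normoxia (median 9.32). Of the 6 hypoxic mice, 5 lay below every normoxic mouse. The difference of -0.16 did not pass the test over all clusters (interval -0.28 to -0.03, limma adjusted p=0.176), and the exact permutation p for the gene alone was 0.00433.

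Bmpr1a, a type I receptor gene expressed in many cell types, ranged from 7.88 to 8.23 in hypoxia (median 8.10) and from 7.95 to 8.07 in normoxia (median 7.96). The hypoxic mice lay on both sides of the normoxic range, 4 above it and 1 below. The difference was 0.08 (interval -0.05 to 0.22, limma adjusted p=0.568), which did not pass the test.

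Bmpr2 was the gene whose call depended on the probes. On the array 2 transcript clusters carry it: the brighter is annotated with Bmpr2 and a predicted gene name that RefSeq lists as its synonym, and the other with Bmpr2 alone. On the brighter cluster the level was 11.99 to 12.28 in hypoxia (median 12.14) and 12.24 to 12.33 in normoxia (median 12.30). The 5 lowest hypoxic mice lay below the normoxic range and the highest lay within it. The difference of -0.16 did not pass the test (interval -0.29 to -0.03, limma adjusted p=0.181), and the exact permutation p was 0.0108.

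On the other cluster, Bmpr2 had levels of 11.53 to 11.68 in hypoxia (median 11.58) and 11.89 to 12.17 in normoxia (median 11.97). No hypoxic mouse overlapped the normoxic range there. The difference was -0.40 (SE 0.057, interval -0.52 to -0.27, limma adjusted p=0.00132), or 0.76 of the normoxic level. The 2 clusters' differences were themselves 0.24 apart on the log2 scale, in a test chosen after the values were seen (exact permutation p=0.0108, two-sided). Which transcripts the probes of each cluster read was not analysed here.

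**Figure D2:**
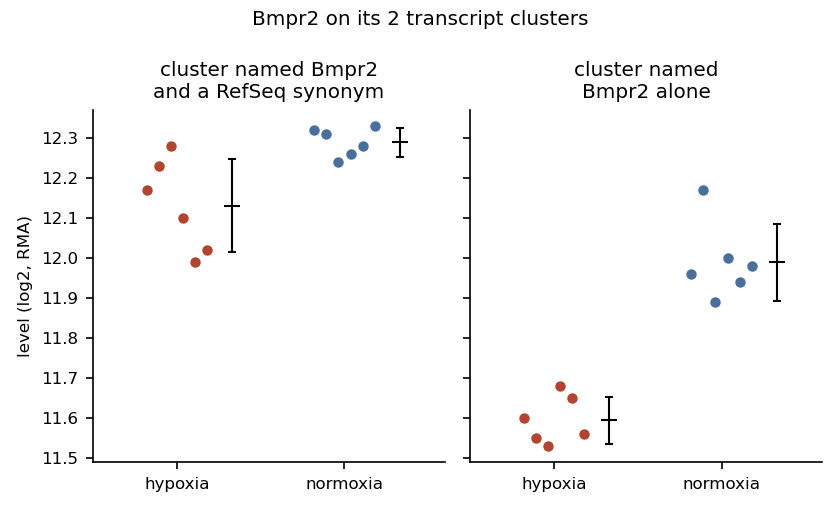
Levels (log2, RMA) of Bmpr2 on its 2 transcript clusters, 1 point per mouse, with mean and SD. On the cluster named Bmpr2 alone the hypoxic mice lie between 11.53 and 11.68, below all normoxic mice; on the brighter cluster 1 hypoxic mouse reaches the normoxic range.

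Smad6 encodes an inhibitory SMAD that is both a target of BMP signalling and a brake on it. Its level was 8.57 at the lowest, 8.66 at the median and 8.85 at the highest in hypoxia, and 9.22, 9.40 and 9.47 at the same ranks in normoxia. The groups did not overlap. The difference was -0.70 (SE 0.063, interval -0.84 to -0.56, limma adjusted p=4.00e-05), or 0.61 of the normoxic level.

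The 3 ID genes encode helix-loop-helix proteins without a DNA-binding region, which hold back E proteins and the differentiation genes that these switch on. None of the 3 passed the test, and their groups overlapped. The level of Id1 was 8.33 to 8.68 in hypoxia (median 8.45) and 8.22 to 8.63 in normoxia (median 8.53), with a difference of 0.01 (interval -0.18 to 0.20, limma adjusted p=0.967). The interval of Id1 leaves room for a change of up to about 0.2 log2 units in either direction, whereas the interval of Smad6 begins at a fall of 0.56.

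The level of Id2 was 8.62 to 8.90 in hypoxia (median 8.75) and 8.52 to 8.78 in normoxia (median 8.59). All 6 hypoxic mice lay above the normoxic median, 3 of them above the whole normoxic range. The difference of 0.13 did not pass the test (interval -0.01 to 0.27, limma adjusted p=0.364). Id3 ranged from 8.35 to 8.61 in hypoxia (median 8.43) and from 8.31 to 8.75 in normoxia (median 8.49), so that the hypoxic range lay inside the normoxic one. The difference of Id3 was -0.08 (interval -0.25 to 0.08, limma adjusted p=0.671).

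Whether the 4 target genes varied together among mice of 1 group was examined in 12 relations. Id2 and Id3 varied together among the hypoxic mice, with r=0.957 (exact permutation p=0.00139, adjusted p=0.0167, n=6) and rho=1 (exact permutation p=0.00278, adjusted p=0.0333). Without the 2 mice farthest from the median of Id2, r was 0.995. Among normoxic mice r was 0.227 (exact permutation p=0.683, adjusted p=0.863) and rho 0.203 (exact permutation p=0.722, n=6), and the difference between the groups was not tested. Hypoxia replicate 4 had the highest Id2 and Id3 of the hypoxic mice. Its mean level of the T and NK cell markers described below was also the highest (7.024, others 6.634 to 6.841). In normoxia that mean was highest in replicate 4 (7.619), which was highest for neither gene. Whether cell content had a part in the relation of Id2 and Id3 was not tested. None of the other 10 relations passed after adjustment (adjusted p=0.622 to 1 for r).

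**Figure D3:**
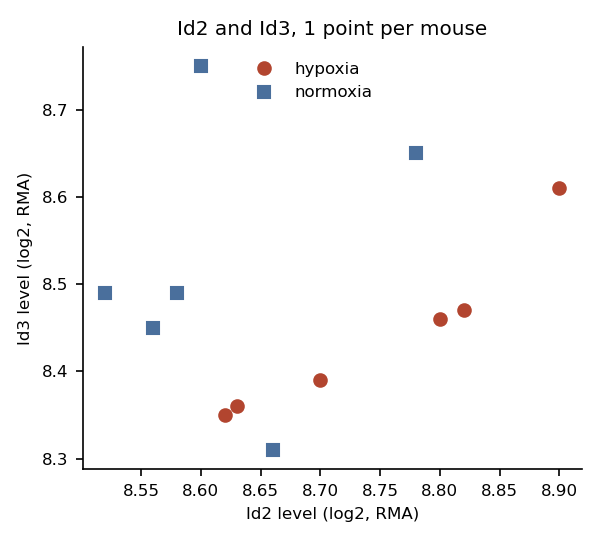
Level of Id3 against level of Id2 (both log2, RMA), 1 point per mouse, hypoxic mice as circles and normoxic mice as squares. The 6 hypoxic mice have the same order for both genes (rho=1), and the normoxic mice do not (rho=0.203).

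The 10 genes were set beside 59 other genes of the pathway, its regulators and heritable pulmonary hypertension, grouped by role. Of these, 10 passed the test, 4 higher and 6 lower in hypoxia. With arrays scaled to endothelial markers 20 passed, 15 higher and 5 lower, so that the balance of directions depends on the scaling. Among 11 other BMP and GDF ligands, 1 rose and 0 fell (median 0.02). The gene that rose was Bmp3, whose product opposes other BMPs in bone, with 8.61 to 8.72 in hypoxia and 8.14 to 8.30 in normoxia (difference 0.45, interval 0.35 to 0.55, limma adjusted p=0.000138). Next by p was Gdf6, which was not called (difference 0.29, interval 0.10 to 0.49, limma adjusted p=0.0987). Gdf6 and most of the other ligands lay below the brightest background probe set (7.52) in all mice. A change in these may have been missed.

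Of 7 other receptors and co-receptors measured, none was called, and their differences lay between -0.13 and 0.09. Most of the 7 lay below the brightest background probe set (7.52) in all mice, so a change in them may have been missed. The 2 with the smallest p were the type II receptor gene Acvr2a (-0.13, interval -0.28 to 0.03, limma adjusted p=0.41) and Neo1, which encodes a receptor for the BMP co-receptors of the RGM family (0.09, interval -0.02 to 0.20, limma adjusted p=0.438). Rgma was present only in clusters shared with other genes and is not reported.

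Among 11 SMADs and their brakes, 1 rose and 1 fell (median -0.02). Smad7, the other inhibitory SMAD, which also restrains TGF-beta receptors, moved in the direction opposite to Smad6. Its level was 8.93 to 9.23 in hypoxia and 8.52 to 8.82 in normoxia, without overlap (difference 0.32, interval 0.16 to 0.47, limma adjusted p=0.0242). The call of Smad7 was lost when normoxia replicate 5 or hypoxia replicate 2 was left out (limma adjusted p up to 0.0564). Smurf2, which encodes a ubiquitin ligase that works with inhibitory SMADs on receptors, fell by 0.33 on the log2 scale (interval -0.44 to -0.21, limma adjusted p=0.0029).

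Of 13 antagonists measured, 1 rose and 1 fell (median -0.04). Fst, which encodes follistatin, a secreted trap for activins and some BMPs, had a level of 7.23±0.20 in hypoxia and 5.75±0.20 in normoxia (SD, n=6 each). Its groups did not overlap, and the measured difference was 1.48 (interval 1.24 to 1.72, limma adjusted p=7.93e-06). Bambi, which encodes a pseudoreceptor that dampens TGF-beta and BMP signalling, had 5.94 to 6.27 in hypoxia and 6.56 to 6.91 in normoxia (difference -0.55, interval -0.74 to -0.37, limma adjusted p=0.0021). Fst in 6 of 6 normoxic and 5 of 6 hypoxic mice, and Bambi in all mice, lay below the brightest background probe set (7.52) and above the median of these sets (3.02), so the size of both differences is uncertain. Most of the antagonists that were not called also lay below 7.52 in all mice, so a change in them may have been missed.

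Of 6 other BMP target genes measured, 0 rose and 2 fell. Hey1, a transcriptional repressor that Notch signalling also switches on, had 8.68 to 8.97 in hypoxia and 9.27 to 9.72 in normoxia (difference -0.72, interval -0.89 to -0.54, limma adjusted p=0.000232). Tmem100, an endothelial target of ALK1, had 9.92 to 10.31 in hypoxia and 10.40 to 10.67 in normoxia (difference -0.41, interval -0.57 to -0.24, limma adjusted p=0.00892). Neither overlapped between the groups. The 4 that were not called had differences up to 0.29, and the median of all 6 was 0.08. Those 4 lay below the brightest background probe set (7.52) in all mice, so a change in them may have been missed. None of the 3 E protein genes was called, with differences of 0.04 for Tcf12 and 0.02 for Tcf4 (limma adjusted p=0.762 and 0.91).

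Of 10 other genes of heritable pulmonary arterial hypertension measured, 1 rose and 2 fell (median -0.13). Sox17, a transcription factor gene of arterial endothelium, had 9.29 to 9.77 in hypoxia and 8.85 to 9.15 in normoxia (difference 0.53, interval 0.35 to 0.71, limma adjusted p=0.00286). Kdr, the gene of the main VEGF receptor, fell by 0.39 on the log2 scale (limma adjusted p=0.00403) and Atp13a3, a polyamine transporter gene, by 0.26 (limma adjusted p=0.00833). The groups did not overlap for any of these 3 genes. Klk1 had the largest difference of the list but was not called (-1.15, interval -1.80 to -0.49, limma adjusted p=0.0522). Its levels of 3.32 to 6.20 lay below the brightest background probe set (7.52).

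**Figure D4:**
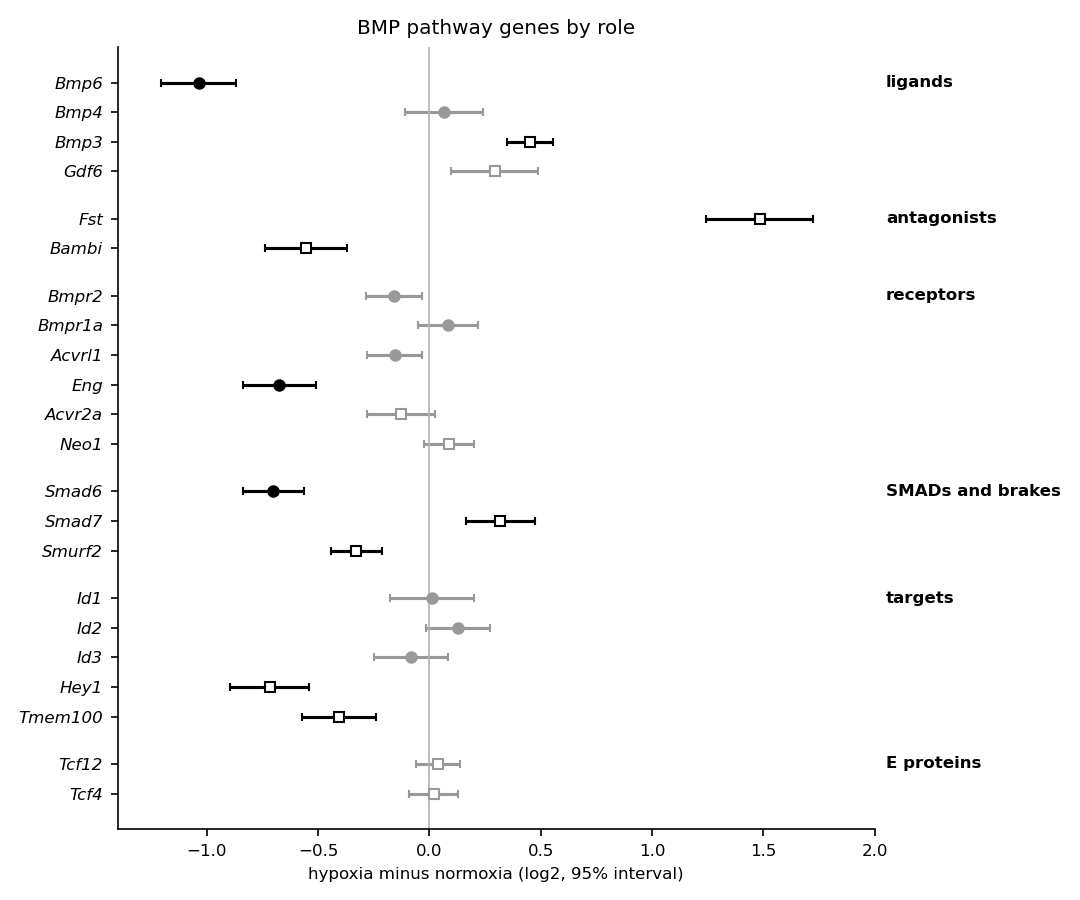
Hypoxia minus normoxia (log2, points) with 95% intervals (bars) for the 10 BMP genes (filled circles) and named genes of the pathway lists (open squares), by role. The list of heritable pulmonary arterial hypertension is not drawn. Black marks genes past the threshold and grey those not called. Bmp6 at -1.04 and Fst at 1.48 lie at the ends, and the 3 ID genes lie within 0.13 of 0.

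Eng, Acvrl1 and Bmpr2 are transcribed mostly or partly in endothelium, so markers of the lung's cell types were read from the same arrays. Of 12 endothelial markers, 4 fell and 1 rose, with a median difference of -0.10. The mean level of the 12 was 9.445 to 9.569 in hypoxia and 9.567 to 9.745 in normoxia. Kdr, Erg, Tek and Ramp2 fell, and Emcn rose by 0.31, but all of these calls other than that of Kdr were lost in 10 of 12 fits that left out 1 mouse. Of the 12 differences, 11 lay below 0. The part of endothelial markers in the falls of the BMP genes was not tested.

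Markers of endothelial subtypes moved in both directions. Of 6 general capillary markers, 4 fell and 0 rose, among them Plvap, the gene of the diaphragm protein of fenestrae (-1.21), and the apelin receptor gene Aplnr (-0.89). Of 6 markers of aerocytes, the capillary cells specialised for gas exchange, 3 fell, with Ednrb at -0.84, and 1 rose. Kdr is 1 of these 3 and is also counted in the endothelial list and in that of heritable pulmonary arterial hypertension. Arterial markers comprised 2 that fell, Dll4 (-1.05) and Efnb2 (-0.83), and Sox17, which rose, of 6. Dll4 lay below the brightest background probe set (7.52) in all hypoxic mice (6.55 to 6.93), so the size of its difference is uncertain. Sox17 is the same measurement as in the list of heritable pulmonary arterial hypertension. Of 6 venous markers, 2 rose and 0 fell, but the call of 1 of them, Vwf, was lost in 7 of 12 fits that left out 1 mouse.

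Outside the endothelium, all 6 smooth muscle markers rose, with a mean level of 9.567 to 10.027 in hypoxia and 8.768 to 9.128 in normoxia. Acta2, the gene of smooth muscle actin, rose by 1.24. Of 6 pericyte markers 3 rose, and of 8 fibroblast markers 4 rose. None of 6 alveolar type 2 markers was called (median -0.13), and of 7 T and NK cell markers 2 fell (median -0.37), Cd3g and Il7r, whose calls were lost in 6 and 8 of 12 fits that left out 1 mouse. Of 6 alveolar type 1 markers 1 fell (Rtkn2), of 5 airway markers 1 fell (Cyp2f2), and of 2 erythroid markers measured 1 rose (Slc4a1). The calls of Cyp2f2 and Slc4a1 were lost in 7 and 8 of 12 fits that left out 1 mouse. Slc4a1 and Cd3g lay below the brightest background probe set (7.52) in all mice. No B cell, macrophage or cardiac muscle marker was called. The mean cardiac muscle level was 8.062 to 9.672 in hypoxia and 8.388 to 9.335 in normoxia. The part of these lists in the BMP results was not tested either.

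**Figure D5:**
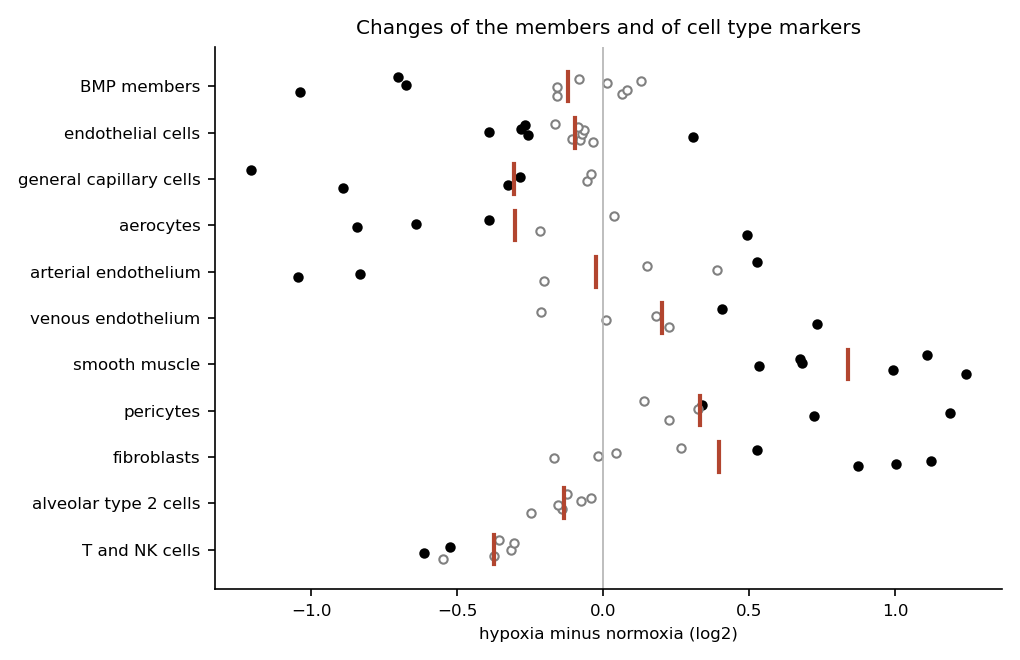
Hypoxia minus normoxia (log2) of each gene in the BMP set and in 10 lists of cell type markers, 1 point per gene, filled where the test was passed, with the median of each list as a vertical bar. Bmp6 lies at -1.04. General capillary and arterial markers spread from Plvap at -1.21 to Sox17 at 0.53, and smooth muscle markers all lie above 0.5.

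For the 3 genes that fell, the genes most alike in their variation among mice were sought after the group mean was removed from each array, over 12 arrays and 12391 genes. For Eng these were Adgrf5 (r=0.937), an adhesion receptor gene of lung epithelium and endothelium, F11r (r=0.913), which encodes a junction protein, and Rabac1 (r=0.901). Of these 3, Adgrf5 fell in hypoxia (difference -0.29, limma adjusted p=0.00392). For Bmp6 the closest genes were Pyurf, Wdr24 and H1f2 (r=0.858 to 0.887) and for Smad6 Dnmbp, Abhd15 and Klhl17 (r=0.858 to 0.912), and none of these 6 was called between hypoxia and normoxia. The coefficients describe the closest of many genes over few arrays, whose hybridisation batches are not known, and carry no test.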

How the data were processed

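RNA from the left lung lobes of 6 hypoxic and 6 normoxic mice was amplified (NuGEN SPIA), labelled and hybridised to Mouse Gene 2.0 ST arrays. Per the submitters' processing notes, the authors used Affymetrix Expression Console for RMA, which made the deposited log2 levels, corrected for background and normalized, per transcript cluster. RMA draws the arrays to 1 distribution, so a shift common to most genes would not be seen. Tool versions and the genome build were not given in the sources used here. Precision is limited by the number of arrays.

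Of 41345 rows, 190 control rows were left out. Platform symbols were updated through gene IDs and RefSeq names (GRCm38.p6), giving 23548 clusters with 1 gene, 1793 with several and 15814 unnamed here. A gene with several clusters is read from the one whose mean across the 12 arrays is highest. Differences between hypoxia and normoxia were fitted by limma 3.58.1 (R 4.3.3; lmFit, then eBayes; two-sided, no covariate), with Benjamini-Hochberg adjustment over 41155 clusters and no filter; the methods name an anova with no further factor, which is an alternative. The fit was tested on simulated arrays. Alternatives were array weights, a variance trend, further normalization, filters on dim clusters, other clusters for a gene, other thresholds, the replicate number as a block and each mouse left out in turn. Single values were checked with an exact permutation test over all splits of the 12 mice. Python 3.11.15, pandas 2.3.3, numpy 2.4.6, scipy 1.17.1 and matplotlib 3.10.9 were used.

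The members, the gene lists and the rule for named genes were chosen with earlier results of these data known. The rule took the 10 members, pathway genes past the threshold (or the 2 smallest p values of a list), the 2 smallest p values of a cell type list (6 for endothelial cells) and the 3 genes most like a member. Some cell type markers taken by the rule are not described in the text. Sftpc and Klk1 are named outside this rule, as a lung marker and as the largest difference of its list. Nothing in the labels says whether mice of 1 group shared a cage or hybridisation batch. The p-values set a difference against the spread between these mice, and those of limma also draw on the spread of all clusters.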

Additional observations from a re-analysis of the deposited data

Results flagged for a closer look

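Of 118 groups of 6 mice, 7 held a mouse that lay far from the others by Dixon's test. The groups were made of 59 genes taken by the naming rule, in hypoxia and in normoxia. Sftpc, Klk1 and the genes most alike to a member were left out, and some of the 59 are not described above. Chance alone would mark about 1 in 20 groups. Among the BMP genes, Eng was low in hypoxia replicate 3, at 9.70 against 9.94 to 9.99 in the other hypoxic mice, which widens the gap to normoxia. Without that mouse the difference of Eng still passed the test. Acvrl1 was high in normoxia replicate 2, at 9.51 with the nearest mouse at 9.35, and so was Bmp4, at 9.18 with the nearest at 8.96. The endothelial transcription factor gene Erg was high in the same mouse, at 9.60 with the nearest at 9.38. Normoxia replicate 2 had the highest normoxic level in 5 of the 10 BMP genes (Acvrl1, Eng, Bmp6, Bmp4 and Id3).

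Of the other named genes, Tcf12 was high in hypoxia replicate 4 (8.81, nearest 8.69). Acta2 was low in normoxia replicate 4 (9.61, nearest 9.92). The pericyte gene Higd1b was high in normoxia replicate 3 (8.39, nearest 8.20).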

How the results depend on the processing

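The calls of Bmp6, Smad6 and Eng were kept, with the same direction, in all 12 fits that left out 1 mouse and in all other settings run. Their differences ranged from -1.07 to -0.91, from -0.74 to -0.58 and from -0.71 to -0.55 in that order, with limma adjusted p up to 0.00474. The number of the 10 genes called was 3 to 4 in every setting. The fourth was Bmpr2 when its clusters were averaged (-0.28, limma adjusted p=0.00453) or when only clusters with 1 platform symbol were read (-0.40, limma adjusted p=0.00132). With arrays scaled to endothelial markers the fourth was Id2, which was higher (0.25, limma adjusted p=0.0402). Of 230 alternative values for the 10 genes, 222 kept direction and side of the threshold. The sign of Id1 turned in 4 fits that left out 1 mouse (range -0.04 to 0.04), and that of Id3 turned when scaled to endothelial markers (0.04); neither was called.

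Scaling to endothelial markers, which was chosen after seeing the data, moved the median difference of all clusters to 0.11 (from -0.02). With it 4081 clusters passed, 3829 higher and 252 lower, where 1141 higher and 699 lower passed without it, and of the pathway genes 20 passed, 15 higher and 5 lower. At a threshold of 0.01, 800 clusters passed. Mice with the same replicate number did not deviate together over all clusters (r=-0.01 to 0.07), so no pairing by number was seen. This does not exclude a shared cage or batch. With the replicate block 961 clusters, 8 pathway genes and 3 of the 10 BMP genes passed. With 1 mouse left out, 9 to 12 pathway genes and 1374 to 1577 clusters passed.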
